A study of Mus musculus with 4 samples.

Results

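The miRNA features of the testicular transcriptome of Nef-sp-/- mice were examined. All rows counted on the sense strand of a miRNA locus were taken, together with antisense rows of the same names, which gave 58 sense and 3 antisense features of 25745 features in the series. The 58 sense features carry 48 miRNA names, since 7 names have several features, told apart by a number after a point whose meaning is not given in the sources used here. Nef-sp (2610020H08Rik, also REXO5) encodes a 3′ to 5′ exoribonuclease of the testis, and the libraries compare testes that lack it with heterozygous testes.

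Total testicular RNA of adult mice at postnatal day 60 was sequenced for 50 cycles in 4 strand-specific libraries, after removal of ribosomal RNA with Ribo-Zero. Of these, 2 libraries were from Nef-sp-/- mice and 2 from Nef-sp+/- mice. Both genotypes were C57Bl/6J and carried the Nef-sp null allele, a 23 bp out-of-frame deletion made with Cas9 nickase, on both chromosomes or on 1. The controls were therefore not wild type. The labels do not say how the 2 samples of a genotype are related, and p-values measure only the spread between these libraries.

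MicroRNAs are short RNAs that guide Argonaute proteins to messenger RNAs. A primary transcript, often an intron or exon of a host gene, is cut in the nucleus by Drosha and Dgcr8 into a hairpin precursor, which is exported by Xpo5 and cut by Dicer1 into the mature form. Germ cells use this pathway along with the related piRNA pathway, and the mir-34 and mir-449 families as well as an X-linked cluster are known for their expression in spermatogenic cells. The libraries were made from long RNA, so reads at a miRNA locus come from primary transcripts, from host transcripts or from other RNAs with the same sequence, and do not measure the mature miRNA.

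Of the 48 sense names, 33 matched a hairpin of the RefSeq table (GRCm38.p6). Each of these hairpins was found by exact matching in mm9, the build of the counts, and 4 further names were placed by the GENCODE vM1 gene of the same name. The first group of mature sequences is shown because each of them also lies, without a mismatch, in a protein-coding transcript. Capitals mark the seed, bases 2 to 8 from the 5′ end, which pairs with targets.
mmu-miR-703: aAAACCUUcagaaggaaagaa
mmu-miR-682: cUGCAGUCacagugaagucug
mmu-miR-147-5p: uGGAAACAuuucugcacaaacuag
mmu-miR-719: aUCUCGGCuacagaaaaauguu
mmu-miR-692: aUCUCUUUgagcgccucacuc
mmu-miR-686: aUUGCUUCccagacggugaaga
mmu-miR-705: gGUGGGAGguggggugggca
mmu-miR-761: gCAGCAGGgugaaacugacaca

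The sequence of miR-703 lies in the 3′ untranslated region of Eef1a1, a translation elongation factor, and has 18 places in mm9. That of miR-682 lies in the coding sequence of Rpl37a, a protein of the large ribosomal subunit, and has 7 places, of which 6 are in exons of pseudogenes. The sequence of miR-692 lies in the coding sequence of Ftl1, the ferritin light chain, and of Gm10116, with 8 places of which 4 are in exons of pseudogenes. That of miR-686 lies in the coding sequence of Psmb5, a proteasome subunit, and has 2 places. Those of miR-147-5p in AA467197 and of miR-705 in Rab11fip5 are in 3′ untranslated regions, and those of miR-719 in Nupl1, a nucleoporin, and of miR-761 in Nrd1, a metalloprotease, are in coding sequence. For miR-761, another transcript of Nrd1 holds the same bases in its 5′ untranslated region. Features whose sequence has several places may share reads with these genes and pseudogenes, and their counts are uncertain for that reason. The treatment of reads with several perfect matches is not given in the sources used here. A full read of 50 bases is longer than a mature sequence. Of the 50-base windows of the hairpin, 0 of 60 for mir-703, 0 of 47 for mir-682 and 0 of 27 for mir-761 lie in a coding transcript. For mir-686 and mir-147, 60 of 60 and 30 of 30 do. Whether the features of a name stand for places other than its hairpin is not given.

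The second group is shown because its members are miRNAs with known roles in many tissues or in spermatogenic cells, grouped where they share a seed. The pairs let-7a-5p and let-7d-5p, miR-20a-5p and miR-93-5p, and miR-30a-5p and miR-30c-5p each have the same seed. For mir-34c, the RefSeq sequences used here held only the 3p form.
mmu-let-7a-5p: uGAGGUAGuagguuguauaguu
mmu-let-7d-5p: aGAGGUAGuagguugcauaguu
mmu-miR-20a-5p: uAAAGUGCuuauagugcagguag
mmu-miR-93-5p: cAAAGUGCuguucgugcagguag
mmu-miR-30a-5p: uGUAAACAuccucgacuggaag
mmu-miR-30c-5p: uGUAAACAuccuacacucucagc
mmu-miR-34c-3p: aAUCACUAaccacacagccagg
mmu-miR-471-5p: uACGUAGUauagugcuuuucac
mmu-miR-881-3p: aACUGUGUcuuuucugaauaga
mmu-miR-877-5p: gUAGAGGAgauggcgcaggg

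Library totals were 20659865 to 34442517 reads, and the largest was Nef-sp+/- replicate 2. Exon reads of Nef-sp itself were 1842 and 1701 normalized counts for replicates 1 and 2 of Nef-sp+/-, against 408 and 491 for those of Nef-sp-/-. A normalized count is the read count scaled by TMM to the mean effective size of the 4 libraries. The genotypes did not overlap, the log2 fold change was -1.98 (SE 0.094), and the adjusted p was 3.7e-05 in the quasi-likelihood test of edgeR, adjusted by the Benjamini-Hochberg method. It was the only 1 of the 17783 features tested that passed an adjusted p of 0.05, which is 0.00562%. Germ cell markers were present in all libraries (7 of 7 genes listed), with summed normalized counts of 327605 to 405188, and 1 of 5 epididymis markers was listed, Crisp1 with 5 reads in all. The 4 Leydig cell markers summed to 15846 and 15938 in Nef-sp+/- and to 14975 and 11932 in Nef-sp-/-. Of these, Cyp17a1 and Cyp11a1 were lower without overlap (log2 fold change -0.28 and -0.36), while Insl3 and Star overlapped (0.18 and 0.08). The part of Leydig cells in the values below was not tested, and in bulk tissue fewer cells of a type and less RNA per cell cannot be told apart.

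The miRNA sense features held a small share of the reads. The share was 0.292% and 0.283% of all listed reads for replicates 1 and 2 of Nef-sp+/-, against 0.269% and 0.280% for those of Nef-sp-/-. It was lower in Nef-sp-/- without overlap, beside 32.1% of all features tested without overlap in either direction. The 95% Wilson interval was 0.289 to 0.294% in Nef-sp+/- replicate 1 and of like width in the other libraries, and such intervals cover counting error only. The means were 0.287% ± 0.00619 and 0.274% ± 0.00752 (SD, n = 2 each, exact two-sided permutation test, p = 0.333), and 0.333 is the smallest p that 2 libraries against 2 allow. Without mir-685.1, the feature with the most reads, the means were 0.117% in both genotypes (exact permutation test, p = 1.0, n = 2 each).

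The reads were concentrated in few features. The feature mir-685.1 alone held 58.2% of miRNA sense reads, the top 2 features 73.6%, the top 4 features 86.8% and the top 8 features 96.3%. The share of mir-685.1 was 59.8% and 58.4% in Nef-sp+/- against 57.1% and 57.3% in Nef-sp-/-. At the other end, 31 of the 58 features had 5 to 41 reads in all 4 libraries together, with a median of 8, and did not pass the expression filter of edgeR. The other 27 were tested.

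**Figure D1:**
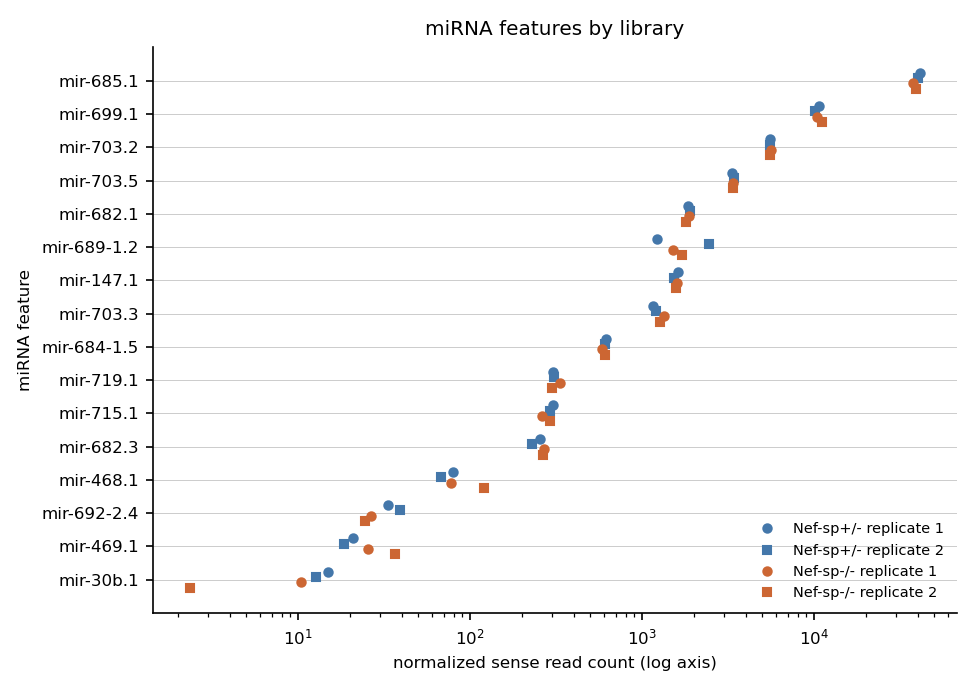
Normalized sense read count per library (log axis) of the 12 miRNA features with the most reads and of the 4 others among the 5 with the smallest unadjusted p; circles and squares are replicates 1 and 2, blue Nef-sp+/- and orange Nef-sp-/-. Points of a feature lie close together except for mir-689-1.2, where the Nef-sp+/- libraries stand at 1219 and 2428, and for features below about 100 normalized counts.

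Reads per feature differed between groups of names, among hairpins of similar length (67 to 121 bases). The first group rests on the mature sequence, the others on the place of the hairpin. The 11 names whose mature sequence is in a coding transcript had 18 features, 15 of which were tested, with a median of 646 reads and 22.0% of miRNA sense reads. In this group, the hairpins of mir-703 and mir-682 had 0 of their 50-base windows in coding transcripts. The 14 other names inside another gene on the same strand had 15 features with a median of 8 reads, and only mir-877.1 among them was tested. The 12 names with no other gene on their strand had 12 features with a median of 13.5 reads, of which let-7d.1, mir-30b.1, mir-296.1 and mir-468.1 were tested. The last 2 groups held 0.0966% and 0.248% of the reads. The other 11 names were matched by name to neither a RefSeq hairpin nor a GENCODE vM1 gene, and so were not placed here. Their 13 features held 77.7%, mostly through mir-685.1 and mir-699.1.

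The genotypes did not overlap in the shares of 3 of these 4 groups of names. Beside this, 32.1% of all features tested did not overlap. For names whose mature sequence is in a coding transcript, the share of miRNA sense reads was 21.3% and 21.7% in Nef-sp+/-. It was 23.1% and 22.0% in Nef-sp-/-, higher without overlap. For the other names inside another gene it was 0.0847% and 0.0893% against 0.113% and 0.105%, also higher, and for names not placed 78.4% and 78.0% against 76.5% and 77.6%, lower without overlap. The group of other names inside another gene held only 263 reads in the 4 libraries together. These shares sum to the whole in each library, so they do not vary independently, and were not tested. For names with no other gene on their strand it was 0.244% and 0.219% in Nef-sp+/- against 0.243% and 0.306% in Nef-sp-/-, which overlapped.

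**Figure D2:**
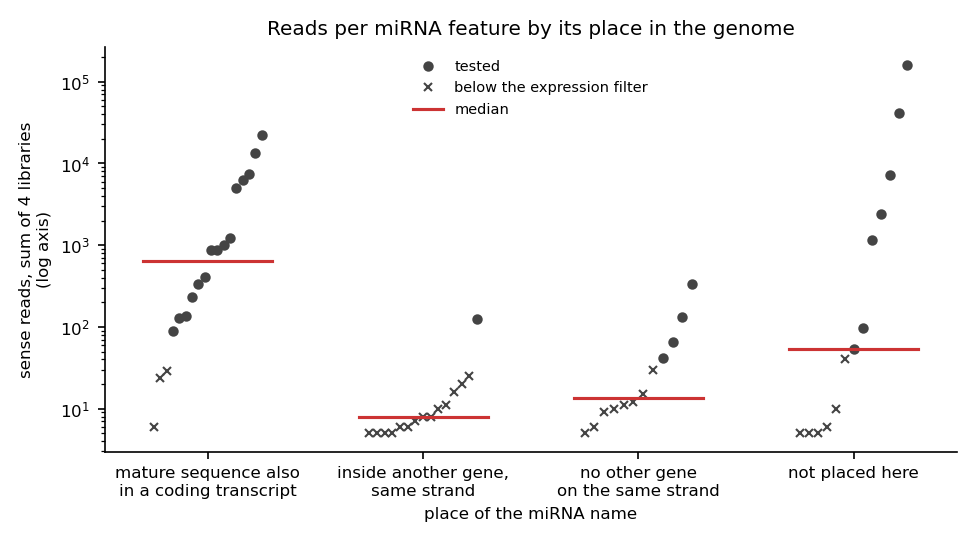
Sense reads summed over the 4 libraries (log axis) of each of the 58 miRNA features, by group of names. The first group rests on the mature sequence, the others on the place of the hairpin in mm9. Circles were tested, crosses were below the expression filter, and red lines are medians. The median is 646 reads for names whose mature sequence is also in a coding transcript and 8 for names inside another gene on the same strand.

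None of the 27 miRNA sense features tested differed between Nef-sp-/- and Nef-sp+/- testes at an adjusted p of 0.05. The smallest adjusted p was 0.997 in edgeR's quasi-likelihood test, adjusted over all 17783 features, and DESeq2 likewise called 0. At an unadjusted p of 0.05, edgeR gave 1 of 27 (3.7%) and DESeq2 gave 0, beside 3.53% of all features tested in edgeR (1.47% higher and 2.06% lower in Nef-sp-/-). The median log2 fold change was -0.02 over the 27 features and 0.0027 over all features tested, and the median absolute log2 fold change was 0.096 and 0.091. Of the 27, 13 had a positive value. Without Nef-sp+/- replicate 1 or replicate 2, 1 of the miRNA sense features passed the adjusted threshold, mir-689-1.2 in both cases, beside 80 and 85 of all features. The genotypes did not overlap for 3 features higher in Nef-sp-/- (11.1%, beside 14.9% of all features tested) and for 7 lower (25.9%, beside 17.2%), 10 in all (37.0%, beside 32.1%).

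The feature with the most reads was mir-685.1. Its normalized counts were 41448 and 40257 in Nef-sp+/- against 37612 and 38811 in Nef-sp-/-. The genotypes did not overlap, but the log2 fold change of -0.10 (SE 0.063) had an unadjusted p of 0.158 and an adjusted p of 0.997 in edgeR. The second, mir-699.1, had 10691 and 10127 in Nef-sp+/- against 10349 and 11073 in Nef-sp-/-, which overlapped, with a log2 fold change of 0.04 (SE 0.066).

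The 4 features of mir-703, whose mature sequence is in the Eef1a1 transcript, spanned a wide range of levels. The hairpin of RefSeq lies at chr5:98904575-98904683 on the minus strand, within an intron of 1700007G11Rik on the other strand. The normalized counts of mir-703.2 were 5508 and 5565 in Nef-sp+/- against 5606 and 5558 in Nef-sp-/-, and those of mir-703.5 were 3326 and 3397 against 3373 and 3390. In both, the genotypes overlapped, and the replicates of a genotype differed by at most 1.02 times. The feature mir-703.3 had 1161 and 1208 in Nef-sp+/- against 1345 and 1268 in Nef-sp-/-, without overlap, with a log2 fold change of 0.14 (SE 0.068, unadjusted p 0.0679 in edgeR). The feature mir-703.1 had 86.3 and 87.0 against 78.8 and 83.1, lower without overlap (log2 fold change -0.10, SE 0.164). Eef1a1 exons had 58427 and 58704 in Nef-sp+/- against 59908 and 60028 in Nef-sp-/- (log2 fold change 0.03, SE 0.062).

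The hairpin of mir-682, at chr13:75782494-75782589 on the plus strand, lies in an exon of the pseudogene Gm4149. Its feature mir-682.1 had 1840 and 1886 normalized counts in Nef-sp+/- against 1874 and 1794 in Nef-sp-/-, which overlapped. The feature mir-682.3 had 255.5 and 229.9 against 270.0 and 266, higher in Nef-sp-/- without overlap (log2 fold change 0.15, SE 0.108). Rpl37a exons, with the same mature sequence, had 3107 and 3131 against 3140 and 3182 (log2 fold change 0.02, SE 0.059).

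The hairpin of mir-147 has 1 place in mm9. It lies at chr2:122466539-122466617 on the plus strand, in an untranslated exon of AA467197. The normalized counts of mir-147.1 were 1622 and 1539 in Nef-sp+/- against 1594 and 1570 in Nef-sp-/-. The genotypes overlapped, and the log2 fold change was 0.0034 (SE 0.065), with a 95% interval of -0.14 to 0.15. AA467197 exons had 2846 and 2647 against 2825 and 2637 (log2 fold change -0.0068, SE 0.068).

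The feature mir-689-1.2 differed more between replicates than any other with at least 1000 reads. Its normalized counts were 1219 and 2428 for replicates 1 and 2 of Nef-sp+/-, against 1513 and 1712 for those of Nef-sp-/-. Both Nef-sp-/- values lay between the Nef-sp+/- values, which differed 1.99-fold, while the replicates of the other 11 such features differed by at most 1.12 times. The log2 fold change was -0.19 (SE 0.236, unadjusted p 0.434 in edgeR). It was -0.59 without Nef-sp+/- replicate 1 (adjusted p 1.72e-08 in edgeR) and 0.40 without Nef-sp+/- replicate 2 (adjusted p 0.046), so its direction rested on 1 library. Ribosomal RNA rows, chosen after their values were seen, varied in the same libraries. Sense reads of the repeat SSU-rRNA_Hsa were 216, 570, 365 and 428 normalized counts in the same order of libraries, those of 5S were 254, 434, 265 and 220.0, and those of LSU-rRNA_Hsa were 556773, 564062, 542653 and 594456. Their part in the counts of mir-689-1.2 was not tested.

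The remaining features with at least 1000 reads were close in both genotypes. The feature mir-684-1.5 had 612 and 604 normalized counts in Nef-sp+/- against 583 and 608 in Nef-sp-/-. The feature mir-719.1, at chr14:60847643-60847752 on the minus strand and partly in a coding exon of Nupl1, had 302 and 307 against 334 and 298, and overlapped. The feature mir-715.1 had 302 and 291 against 262 and 289, which did not overlap (log2 fold change -0.10, SE 0.103). For the 11 features with at least 1000 reads other than mir-689-1.2, the 95% intervals of the log2 fold change lay between -0.33 and 0.39. These are intervals of single features and not a joint bound. The interval of mir-689-1.2, which was set apart after its values were seen, was -0.72 to 0.34.

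**Figure D3:**
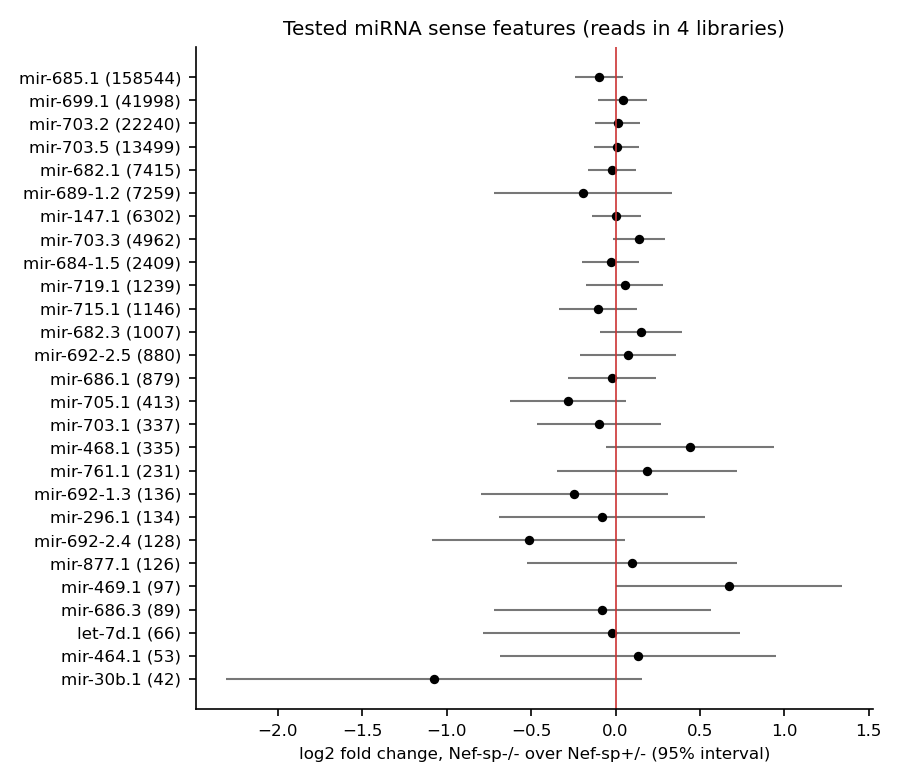
Log2 fold change (Nef-sp-/- relative to Nef-sp+/-) with its 95% interval for the 27 miRNA sense features tested, ordered by reads in the 4 libraries (in brackets); the red line marks no difference. Most intervals widen as reads fall, from a SE of 0.063 for mir-685.1 to 0.55 for mir-30b.1, but mir-689-1.2 has a SE of 0.236. The interval of mir-469.1 has its lower bound at 0.0015.

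Of the 5 features with the smallest unadjusted p, mir-703.3 is given above and the other 4 had fewer reads. The feature mir-469.1 had 20.7 and 18.4 normalized counts in Nef-sp+/- against 25.5 and 36.3 in Nef-sp-/-, from 97 reads in all. It was higher in Nef-sp-/- without overlap, with a log2 fold change of 0.67 (SE 0.300, unadjusted p 0.0496 and adjusted p 0.997 in edgeR), and of 0.40 without Nef-sp-/- replicate 2. The feature mir-468.1, at chr6:81846593-81846670 on the minus strand with no other gene on that strand, had 79.4 and 67.9 against 77.6 and 120.5. These overlapped, and Nef-sp-/- replicate 2 was the high one (log2 fold change 0.44, SE 0.222). The value was 0.097 without that library and 0.73 without Nef-sp-/- replicate 1. The feature mir-692-2.4 had 33.4 and 38.9 against 26.6 and 24.6, lower without overlap (log2 fold change -0.51, SE 0.255). The feature mir-30b.1, at chr15:68168977-68169072 on the minus strand, had 13, 18, 9 and 2 reads in the order of libraries above. It was lower in Nef-sp-/- without overlap, with a log2 fold change of -1.07 (SE 0.55, adjusted p 0.997 in edgeR), and the lowest count was that of Nef-sp-/- replicate 2. The value was -0.38 without that library and -2.48 without Nef-sp-/- replicate 1.

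The other tested features of names whose mature sequence is in a coding transcript did not pass the threshold either. The feature mir-705.1, at chr6:85286286-85286367 on the minus strand in an untranslated exon of Rab11fip5, an effector of Rab11 in endosome recycling, had 113 and 111 normalized counts in Nef-sp+/- against 95.01 and 88.9 in Nef-sp-/-. It was lower without overlap (log2 fold change -0.28, SE 0.152, unadjusted p 0.0955 in edgeR), and Rab11fip5 exons overlapped at 11344 and 11980 against 11403 and 9816 (log2 fold change -0.14, SE 0.079). The feature mir-692-1.3 was lower without overlap as well (log2 fold change -0.24, SE 0.248). The features mir-686.1, mir-686.3, mir-692-2.5 and mir-761.1 overlapped, with log2 fold changes of -0.02, -0.08, 0.07 and 0.19. Psmb5 exons, which contain the mir-686 hairpin at chr14:55235514-55235622, were lower without overlap at 830 and 781 against 761.3 and 690.4 normalized counts (log2 fold change -0.15, SE 0.079, adjusted p 0.997 in edgeR).

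Of the remaining features tested, mir-296.1, mir-464.1, mir-877.1 and let-7d.1 had 134, 53, 126 and 66 reads, and the genotypes overlapped in each. The log2 fold change was -0.08 for mir-296.1, 0.13 for mir-464.1, 0.10 for mir-877.1 and -0.02 for let-7d.1. The hairpin of mir-877 lies in an intron of Abcf1, a protein of translation initiation, at chr17:36097675-36097759 on the minus strand.

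miRNAs known for spermatogenic cells were near the limit of detection in these libraries. In the order of libraries above (Nef-sp+/- first), mir-34c.1 had 1, 3, 3 and 5 reads, and mir-449b.1, in an intron of Cdc20b, had 0, 7, 6 and 3. The features of the X-linked cluster, mir-471.1 and mir-881.1, had 3, 4, 3 and 5 reads and 1, 2, 0 and 2 reads. None of these was tested, and 0 reads in a library allow up to 3. Differences between genotypes in these features were not detectable at this depth.

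Members of the mir-17-92 cluster and its paralog were as low. The features mir-19a.1 and mir-20a.1, both in exons of the host transcript Mir17hg, had 2, 2, 3 and 0 reads and 4, 7, 1 and 8 reads in the same order. Those of the paralogous cluster within Mcm7, a subunit of the replicative helicase, were mir-25.1 with 3, 3, 0 and 2 reads and mir-93.1 with 2, 1, 1 and 1 reads. Mcm7 exons themselves had 15440 reads, and their log2 fold change was 0.01 (SE 0.063). Of the let-7 family, whose members hold back proliferation in many tissues, let-7a-1.1 had 4, 3, 1 and 3 reads and let-7d.1 had 12, 26, 14 and 14 reads. Both lie on the minus strand of chromosome 13, at chr13:48633548-48633641 and chr13:48631381-48631483, with no other gene on that strand.

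The other features below the expression filter were of 2 kinds. Those placed in mm9 were mir-186.1, mir-195.1, mir-202.1, mir-30a.1, mir-30c-2.1, mir-343.1, mir-410.1, mir-425.1, mir-466b-1.3, mir-466b-1.7, mir-467c.11, mir-546.1, mir-677.1, mir-678.1, mir-686.2 and mir-704.1, with 5 to 30 reads. Those not placed were mir-15a.1, mir-466a.13, mir-469.2, mir-683.1, mir-683.3 and mir-801.1, with 5 to 41 reads. The highest of all was mir-15a.1 with 6, 15, 11 and 9 reads in the order above, where the genotypes overlapped once normalized.

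Per length, counts at miRNA loci inside genes lay above or below those of the exons of their gene. The mir-147 locus had 20016 ± 445 normalized reads per kilobase (SD, n = 4 libraries), and the exons of AA467197 had 2277 ± 93.1, so the locus was 8.79 times as high, from 8.59 to 9.07 across libraries. The mir-719 locus had 2820 ± 146 and Nupl1 exons 886 ± 11.4, a ratio of 3.18. The order was the other way for mir-705 in Rab11fip5 (0.689), mir-877 in Abcf1 (0.485), mir-761 in Nrd1 (0.451) and mir-546 in Ctdsp2 (0.395). The mir-877 locus is intronic, so the exons of Abcf1 are not the part that holds it. It had 126 reads in all, and the introns of Abcf1 had 84 sense reads. For mir-25 and mir-93, the ratios to Mcm7 exons were 0.0269 and 0.0173. In each of these pairs, the ratio stayed on the same side of 1 in all 4 libraries. Other loci with few reads also lay on both sides, such as mir-678 in Prmt2 (6.93, 6 reads) and mir-704 in Pdia4 (0.0659, 8 reads). Lengths were those of the hairpin and of the merged exons, and whether a read that only overlaps a hairpin, or that also lies in an exon, was counted for the miRNA is not given in the sources used here. The hairpins of mir-705, mir-877, mir-761 and mir-546 have 82, 85, 76 and 121 bases but only 33, 36, 27 and 72 windows of 50 bases. The part of read length in the ratios below 1 was not tested.

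**Figure D4:**
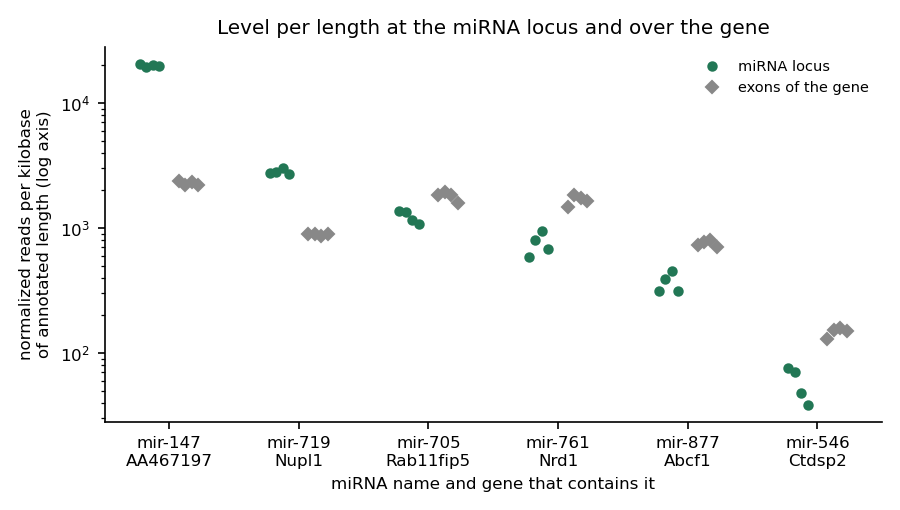
Normalized reads per kilobase of annotated length (log axis) at 6 miRNA loci (green circles) and over the merged exons of the gene that contains each (gray diamonds), with 1 point per library in the order of replicates, Nef-sp+/- first. The loci of mir-147 and mir-719 lie above the exons of their genes and the other 4 below, in every library. The mir-877 locus itself is intronic.

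No host gene passed an adjusted p of 0.05 for exon or intron reads in edgeR (adjusted p 0.997 for each tested). Intron reads of Abcf1, the host of mir-877, were 28.8 and 23.3 normalized counts in Nef-sp+/- against 18.5 and 11.7 in Nef-sp-/-, without overlap (log2 fold change -0.75, SE 0.338, unadjusted p 0.0517 in edgeR). Its exon reads overlapped at 3236 and 3431 against 3561 and 3131. Exon reads of Sfmbt2, which holds the mir-466 and mir-467 cluster in an intron, were 3200 and 3058 against 3387 and 3322, higher without overlap (log2 fold change 0.10, SE 0.061). The cluster itself had 10 reads or fewer per feature.

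At the 3 features with rows on both strands, almost all reads together were sense, mostly those of mir-685.1. The other antisense features, given at the end, had no sense row of the same feature name. Antisense rows with the same names were those of mir-685, mir-715 and mir-677, with 6, 25 and 5 reads in all, beside 158544, 1146 and 5 sense reads. Over these 3 names, the sense share was 99.97% in both libraries of Nef-sp+/-, against 99.98% and 99.99% for Nef-sp-/- (exact two-sided permutation test, p = 0.333, n = 2 each). Without mir-685, it was 97.1% and 96.3% in Nef-sp+/- against 98.7% and 98.8% in Nef-sp-/-, and mir-677 had 5 reads on each strand. For mir-715 alone, antisense reads were 7 and 13 in Nef-sp+/- against 3 and 2 in Nef-sp-/-. Its sense share was 97.4% and 96.9% in Nef-sp+/- against 98.7% and 99.2% in Nef-sp-/-, without overlap (exact permutation test, p = 0.333, n = 2 each), and the Wilson intervals of the libraries, from 94.7% to 99.8% at their widest, overlapped.

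Genes of the miRNA pathway were expressed and did not differ at the threshold. Of 29 genes, 27 were tested and 0 were called in edgeR or DESeq2, with 1 at an unadjusted p of 0.05 in edgeR and 0 in DESeq2. Beside these stand 3.53% of all features at an unadjusted p of 0.05. Of the 27, 3 were higher and 6 lower in Nef-sp-/- without overlap (14.9% and 17.2% of all features tested), and the median log2 fold change was -0.01. In nuclear processing, Drosha (listed as Rnasen) had 369 and 353 normalized counts in Nef-sp+/- against 362 and 329 in Nef-sp-/-, which overlapped. Its partner Dgcr8 had 694 and 587 against 629 and 575, and the exporter Xpo5 had 1424 and 1440 against 1466 and 1442, higher without overlap at a log2 fold change of 0.02 (SE 0.063).

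Dicer1, which cuts the precursor in the cytoplasm, had 243 and 181 normalized counts in Nef-sp+/- against 168 and 211 in Nef-sp-/-, which overlapped (log2 fold change -0.14, SE 0.167). The Argonaute genes, which hold the mature miRNA, summed to 342 to 419 across libraries, mostly from Ago4. Ago4 (listed as Eif2c4) had 319 and 315 against 269 and 315, Ago3 (Eif2c3) 64.4 and 58.0 against 46.3 and 55.0, and Ago2 (Eif2c2) 33.4 and 32.5 against 25.5 and 38.6. Ago1 (Eif2c1) had 8 reads in all and was not tested. Ago3 and Ago4 were lower without overlap, with log2 fold changes of -0.26 (SE 0.204) and -0.12 (SE 0.108), and Ago2 overlapped. For Ago4 this was nearly a tie, since replicate 2 had 314.85 in Nef-sp+/- and 314.76 in Nef-sp-/-.

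The smallest unadjusted p of the pathway genes was that of Adar, which edits adenosines in double-stranded RNA. It had 27.6 and 24.1 normalized counts in Nef-sp+/- against 11.6 and 12.9 in Nef-sp-/-, from 79 reads in all. It was lower without overlap (log2 fold change -1.05, SE 0.325, unadjusted p 0.00929 and adjusted p 0.997 in edgeR). Next among lower values was Tnrc6c, a partner of Argonaute in silencing, with 2642 and 2522 against 2321 and 2365 (log2 fold change -0.14, SE 0.062, unadjusted p 0.0503 in edgeR). Among higher values was Lin28b, which blocks let-7 processing, with 62.1 and 63.0 against 75.3 and 78.4 (log2 fold change 0.29, SE 0.176, unadjusted p 0.126 in edgeR). Another was Dis3l2, an exonuclease that degrades tailed let-7 precursors, with 825 and 824 against 868 and 869 (log2 fold change 0.07, SE 0.068, unadjusted p 0.299 in edgeR).

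**Figure D5:**
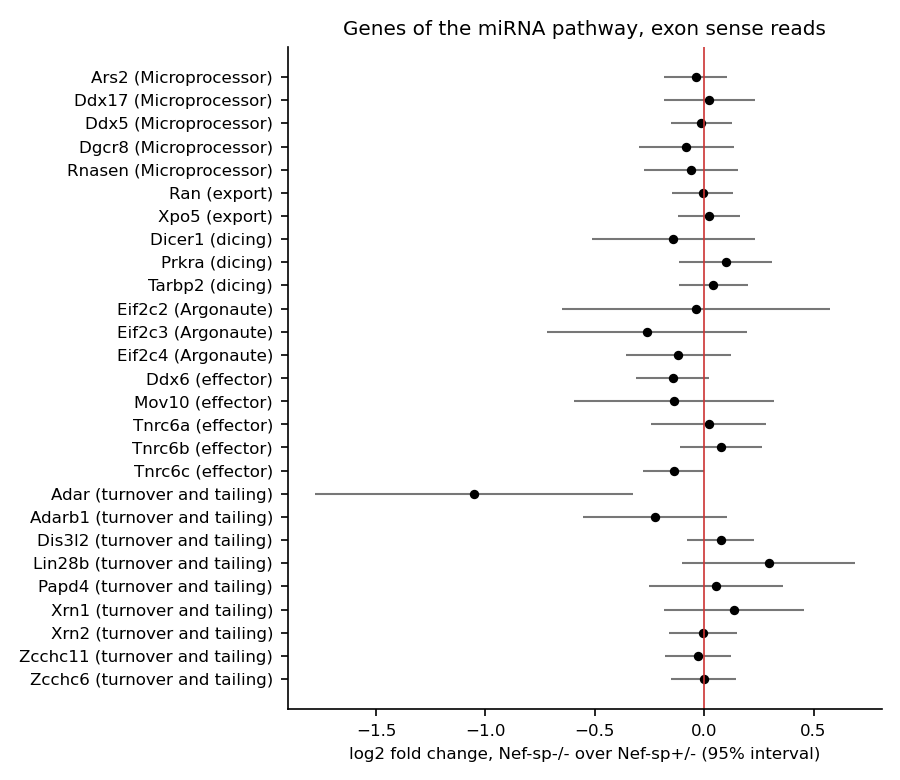
Log2 fold change of exon reads (Nef-sp-/- relative to Nef-sp+/-) with its 95% interval for the 27 tested genes of the miRNA pathway, grouped by role; the red line marks no difference. The interval of Adar lies wholly below 0, from -1.78 to -0.32, and no gene passed the adjusted threshold.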

How the data were processed

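The raw counts deposited by the authors are numbers of reads per feature in each annotation group and orientation, after adapter removal and perfect mapping to mm9 by in-house software. Software versions are not given in the sources used here. The authors also deposited a mean normalized signal, a log2 fold change, and p-values and adjusted p-values of their DESeq2 comparison. These columns were not used. Every listed miRNA feature had at least 5 reads.

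From the counts, all 10 annotation categories were fitted together in edgeR 4.0.16 (R 4.3.3) with its quasi-likelihood F test, TMM scaling and the expression filter of edgeR (minimum count 10), without covariates. Of 25745 features, 17783 were tested, with Benjamini-Hochberg adjustment over all of them and a threshold of 0.05. The test was checked on simulated counts. Shares were compared by exact permutation tests in scipy 1.17.1 with 95% Wilson intervals, and figures were drawn with matplotlib 3.10.9. Library totals were 20659865 to 34442517 reads, and depth per feature is given beside each value. Genotype and replicate were taken from the labels.

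Hairpins and mature sequences of RefSeq (GRCm38.p6) were matched exactly to mm9 and to GENCODE vM1 transcripts. The mature sequence of a name and every 50-base window of its hairpin were sought in coding transcripts on the sense strand. Named are all features tested, with values per library for the 12 with the most reads, the 5 with the smallest unadjusted p and members of lists of spermatogenic, X-linked, mir-17-92, let-7 and erythroid miRNAs (of the last, none was analysed here), hosts, and pathway genes with the smallest unadjusted p (2 in each direction) or with a core role. The members and lists were chosen with earlier results of these data known.

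Alternatives were other scalings (size factors of DESeq2, library totals, TMM on miRNA sense or on gene exon sense features), DESeq2 1.42.0 as the test, no filter, a filter of 10 counts per library, a block for the replicate number, and fits that omitted 1 library. The labels do not say that same-numbered samples belong together.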

Additional observations from a re-analysis of the deposited data

How the results depend on the processing

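Of 350 values of single miRNA features under the alternatives, 325 kept their direction and their side of the threshold, 24 changed sign and 1 passed the threshold in the same direction. Of those that changed sign, 1 also passed it (mir-689-1.2 without Nef-sp+/- replicate 2, adjusted p 0.046 in edgeR). Outside libraries left out, the sign changed for let-7d.1 (0.00845 in DESeq2, 0.00461 with the replicate block), mir-147.1 (-0.012 with library totals, -0.0024 with TMM on miRNA sense features), mir-703.2 (-0.00356 with library totals) and mir-703.5 (-0.00667 with library totals). With each library left out, log2 fold changes ranged from -0.175 to 0.238 for let-7d.1, -0.0343 to 0.0383 for mir-147.1, -0.303 to 0.109 for mir-296.1, -0.0556 to 0.0112 for mir-682.1, -0.0573 to 0.000967 for mir-684-1.5, -0.0824 to 0.0529 for mir-686.1, -0.592 to 0.405 for mir-689-1.2, -0.0241 to 0.196 for mir-692-2.5, -0.004 to 0.0892 for mir-699.1, -0.00848 to 0.0248 for mir-703.5, -0.0299 to 0.135 for mir-719.1, -0.0754 to 0.459 for mir-761.1 and -0.18 to 0.328 for mir-877.1. The count of miRNA features called was 0 in every alternative except 0 to 1 with a library left out, and that of pathway genes was 0 throughout. A lone library left in a genotype is assumed to vary like the others.

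Over all features, 1 was called in the main fit, 4 in DESeq2, 50 with the crossed replicate block, and 1 to 85 with a library left out (80 without Nef-sp+/- replicate 1, 85 without Nef-sp+/- replicate 2). The median log2 fold change of miRNA features was -0.0216, and it was 0.0104 without the filter, 0.00845 in DESeq2 and -0.0314 to 0.0202 with a library left out. The difference in the share of miRNA sense reads was -0.0128 percentage points and -7.72e-05 without mir-685.1. The difference in sense share was 0.0173 points and 2.08 without it. The cause of these shifts was not tested. With the replicate number as a block, 0 miRNA features and 1 feature of all were called, and the median was 0.00268. Same-numbered libraries deviated with a correlation of -0.153, so the crossed block was added after seeing the data, with 0 miRNA features called. Depth limits the 31 features with at most 41 reads, which were not tested.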

Other observations

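Antisense reads were also counted at 5 names for which sense reads were not analysed here, and at mir-684-1 and mir-689-1 under other feature numbers than their sense rows. The feature mir-680-2.5 had 66, 137, 86 and 74 antisense reads in the order of libraries used above, and mir-680-2 had 5 antisense features in all. Its mature sequence has 245 places in mm9. The feature mir-762.1 had 55, 110, 46 and 62 antisense reads, and its hairpin lies on the strand opposite to an exon of Bcl7c. The feature mir-135a-1.1 had 12, 13, 10 and 10, and its hairpin lies opposite to an untranslated exon of Glyctk. The features mir-805.1, mir-220.2 and mir-684-1.1 had 213, 154 and 124 antisense reads in all. None of these passed the threshold (adjusted p 0.997 in edgeR for each tested).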
